A study of Homo sapiens with 15 samples.

Results

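The low dose group (LD) of a dimethylamine exposure series was compared with its clean air control (CA). LD was chosen by its sample label and held 3 of the 15 samples of the series, and CA held 3 more. All samples were cultures of A549, a human cell line from a lung adenocarcinoma that is used as a model of the alveolar epithelium, grown at the air-liquid interface on porous inserts. LD cultures received dimethylamine vapour at 14.9 ppm and CA cultures the same exposure flow of clean air, each for 60 min followed by 23 h of recovery, 3 times within 72 h and at 3 ml/min per cm2. The remaining groups of 3 were a mid dose (MD, 41.1 ppm), a high dose (HD, 81.7 ppm) and a non-exposed control without exposure flow (NEC). Each sample was made from 2 pooled wells.

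The labels also gave the exposure plate. Plate 1 held the 3 LD samples, plate 5 the MD samples and plate 6 the HD samples, while CA and NEC had 1 sample on each of these plates. The CA samples were numbered by plate here, so that CA replicate 1 was that of plate 1, replicate 2 that of plate 5 and replicate 3 that of plate 6. LD therefore shared its plate with a single CA sample, and the spread of LD between plates was not measured. The sources give 4 exposed cultures a plate, beside 3 samples of 2 pooled wells, and do not say how these numbers fit together, so that p-values cover the spread between these samples only.

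Dimethylamine is a small, volatile and alkaline amine that irritates the airways. Cells of the lung surface can meet inhaled vapours. Their responses to irritants include stress signalling, the release of cytokines, and changes in lipid synthesis and in matrix and junction proteins. A549 cells keep part of the epithelial programme and can also express a set of liver-type secreted proteins, among them the fibrinogen chains.

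RNA was measured by quantitative RT-PCR on a custom array of 297 assays for 296 genes. A threshold cycle (CT) is the PCR cycle at which a product is detected, so a lower CT means more RNA. Expression is given here as the negative ΔCT, which is the mean CT of the normalisation genes GPN1 and TMEM184C minus the CT of the gene, on a log2 scale. A level of 0 is that of these 2 genes, and levels of different genes are not compared, since assays differ in efficiency. The normalisation genes had a mean CT of 24.9 ± 0.09 in LD and 24.9 ± 0.11 in CA (SD, n = 3 each), and the number of wells with a product was 283 to 287 in each sample. Of the cell type markers listed, CDH1 and KRT18 stood for epithelium and were detected in every sample. No marker of alveolar type I or type II cells, fibroblasts or endothelium was on the panel, so the alveolar character of the line was not measured. Levels are relative to the normalisation genes, so the number of cells was not measured. These bulk samples do not tell a change in all cells from a change in part of them.

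The comparison of LD with CA asked which genes already responded at the lowest concentration. Of 282 genes that could be tested, 33 differed (11.7% of the genes tested) at an adjusted p under 0.05 in the linear model of limma. LD was higher for 12 genes (4.26%) and lower for 21 genes (7.45%). At an unadjusted p under 0.05 the count was 82 genes (29.1%). The split depended on the scaling. With the median of all genes in place of the normalisation genes, 31 genes were higher and 11 lower, and the median difference over all genes was 0.08 in place of -0.06. With GPN1 alone 2 genes were higher and none lower, with TMEM184C alone 9 higher and 28 lower, and without normalisation 2 higher and 9 lower. A change of scaling shifts every gene by the same amount, and these shifts were smaller than the smallest difference among the 33 genes. The signs of the 33 genes therefore could not change under these 4 scalings. The changes were small. Of the genes described here, DHRS9 rose and INSL4 fell by more than 2-fold. For all 33 genes the LD and CA samples did not overlap, which held for 94 of the 278 genes detected in all LD and CA samples (33.8%). All differences below are LD minus CA in log2 units ± SE with n = 3 in each group, and all adjusted p-values are from limma over these 282 genes.

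**Figure D1:**
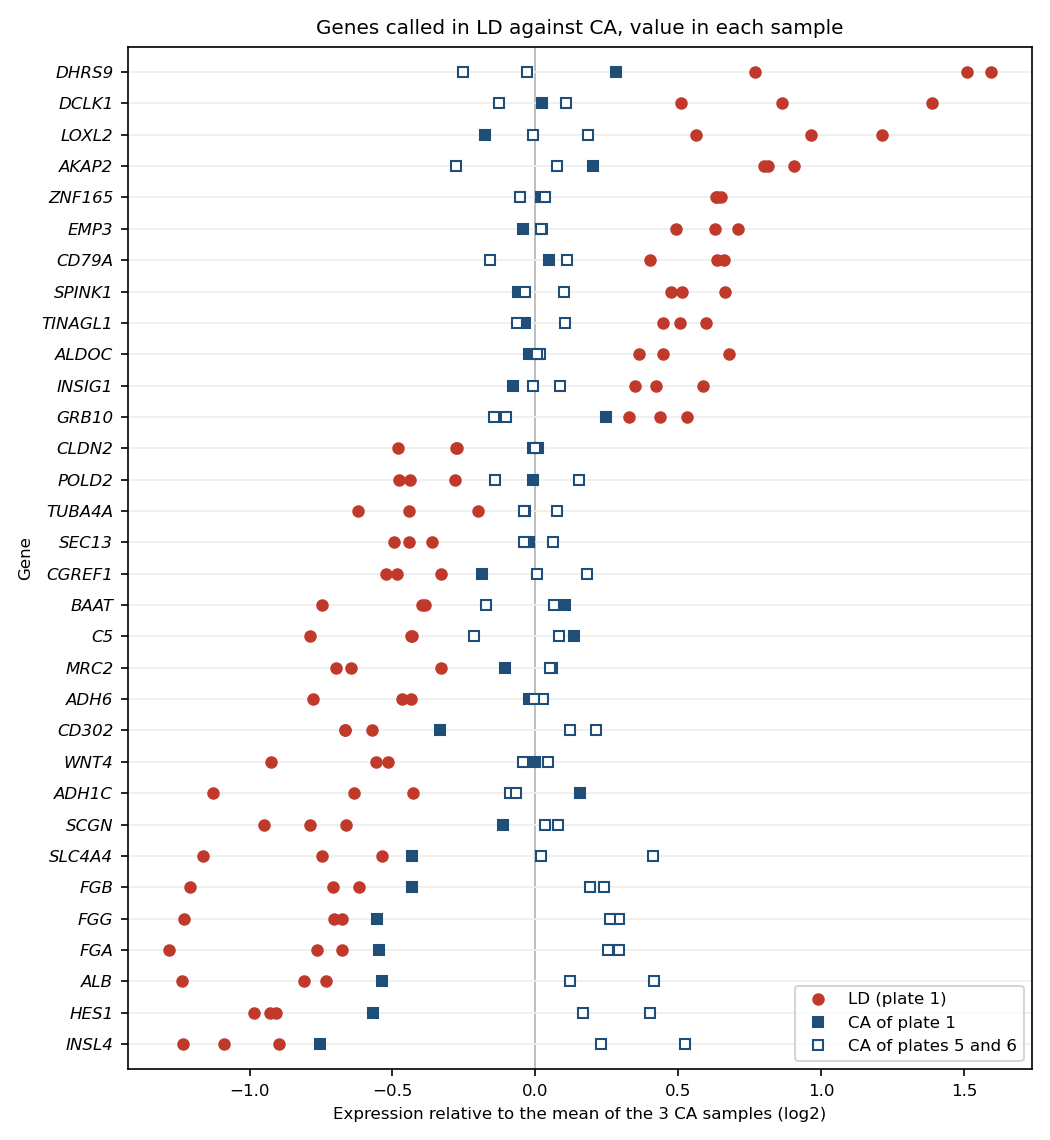
Expression of 32 genes that differed between LD and CA, in log2 units relative to the mean of the 3 CA samples, with genes in rows. Red circles are the LD samples, the filled square is CA of plate 1 and open squares are CA of plates 5 and 6. LD lies beyond every CA sample in each row, and for FGA, FGB, FGG, ALB, HES1 and INSL4 the CA sample of plate 1 lies between LD and the other CA samples.

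The largest rise was in DHRS9, a dehydrogenase of the short-chain family that oxidises retinol. Its expression was -0.86, -1.69 and -0.95 in LD replicates 1, 2 and 3, against -2.17, -2.49 and -2.71 in CA replicates 1, 2 and 3. All LD samples lay above all CA samples, and LD replicate 2 was the lowest of its group. The difference was 1.29 ± 0.21 (2.45-fold, adjusted p = 0.00588, limma). The CA sample of plate 1 was the highest CA sample, and against it alone LD was higher by 1.01. DHRS9 also stood higher in CA than in NEC, by 0.90 ± 0.21 (adjusted p = 0.0545, limma). The other members of its list, the reductase DHRS2 and the cytochrome P450 genes CYP1B1 and CYP24A1, had differences of -0.03, 0.30 and 0.02 and were not called.

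EMP3, a tetraspan membrane protein of the PMP22 family, had the smallest adjusted p. Its expression was 1.84, 1.70 and 1.92 in LD, against 1.17, 1.23 and 1.23 in CA. The gap between the groups was several times the range within CA, and the difference was 0.61 ± 0.09 (adjusted p = 0.00561, limma). The controls differed in this gene too, which was higher in CA than in NEC by 1.03 ± 0.09 (adjusted p = 1.69e-05, limma), 1 of 3 genes called in that comparison (1.06% of the genes tested). LD stood above NEC by 1.64. The related EMP1 had a difference of 0.39 ± 0.23 (adjusted p = 0.309, limma).

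DCLK1, a kinase that binds microtubules, was at -3.96, -3.61 and -3.08 in LD and at -4.44, -4.59 and -4.36 in CA. LD replicate 3 was the highest sample, and LD replicate 1 lay nearest to CA. The difference was 0.92 ± 0.24 (adjusted p = 0.0404, limma). LOXL2, a secreted oxidase that cross-links collagen, was at -1.52, -1.92 and -1.27 in LD and at -2.66, -2.49 and -2.30 in CA, with a difference of 0.91 ± 0.20 (adjusted p = 0.0312, limma). Here CA of plate 1 was the lowest CA sample, so the difference within plate 1 was larger, at 1.09. AKAP2, which anchors protein kinase A and is annotated in RefSeq as part of PALM2AKAP2, rose by 0.84 ± 0.25.

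A further group of rises lay between 0.43 and 0.64. ZNF165, a zinc finger gene, had nearly the same value in the LD samples, at -2.76, -2.75 and -2.74, against -3.37, -3.44 and -3.35 in CA. SPINK1, a secreted trypsin inhibitor, was at -1.53, -1.57 and -1.38 in LD and at -2.11, -1.95 and -2.08 in CA. TINAGL1, a matricellular protein of basement membranes, was at -2.13, -2.22 and -2.28 in LD and at -2.77, -2.63 and -2.79 in CA. The replicates of these 3 genes were tight in both groups, and their differences were 0.64 ± 0.17, 0.55 ± 0.15 and 0.52 ± 0.12. CD79A, a signalling chain of the B cell receptor, rose by 0.57 ± 0.15, ALDOC, the brain-type aldolase of glycolysis, by 0.50 ± 0.15, and GRB10, an adaptor of the insulin receptor, by 0.43 ± 0.13. CD79A was the only 1 of the 10 listed leukocyte markers on the panel, with a mean CT of 23.9 in LD and 24.5 in CA. All samples were cultures of the A549 line, so no leukocyte content is read from this gene.

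INSIG1, which holds the activator of sterol synthesis SREBP in the endoplasmic reticulum and is itself a target of SREBP, was the single called gene of sterol metabolism. Its expression was 3.85, 3.61 and 3.69 in LD, against 3.18, 3.35 and 3.25 in CA. The lowest LD sample was above the highest CA sample, and the difference was 0.45 ± 0.14 (adjusted p = 0.0492, limma). Its promoter is shown as that of the one sterol gene called. The 150 bases before the gene start (RefSeq, GRCh38.p14, chr7:155297728-155297877, plus strand) are given with the E-box CACGTG in capitals, 55 bases before the start.
INSIG1: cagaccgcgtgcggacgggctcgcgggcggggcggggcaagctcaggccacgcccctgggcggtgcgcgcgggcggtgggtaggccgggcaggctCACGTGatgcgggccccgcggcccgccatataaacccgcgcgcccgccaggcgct
The letters CACGTG, which read the same on both strands, occurred in the 250 bases before the start of 4 of the 29 called genes with a promoter window (ADH1C, ALDOC, CGREF1 and INSIG1), of 16 of 229 panel genes (6.99%) and of 6.28% of all 27305 promoters in the table. A match of letters is a description and not a binding site.

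Of the 11 members of the cholesterol and fatty acid synthesis list that were tested, 1 rose, none fell and 10 were not called, a share near the 11.7% of all genes. Their median difference was 0.22, against -0.06 over all genes tested, and 10 of 11 were above 0. FDFT1, squalene synthase, had a difference of 0.30 ± 0.10 (adjusted p = 0.0815, limma) and STARD4, a sterol carrier, one of 0.27 ± 0.12 (adjusted p = 0.138, limma). The exception was FASN, fatty acid synthase, at -3.11, 3.36 and 3.49 in LD and at 3.51, 3.55 and 3.44 in CA. LD replicate 1 was far below all others, with a CT of 28.1 where the other 2 LD samples had 21.5 and 21.3. The difference of FASN was -2.26 ± 1.21 (adjusted p = 0.249, limma) and rests on this sample. Without LD replicate 1 it was -0.08 ± 0.11 (adjusted p = 0.732, limma).

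ADH6 and ADH1C, alcohol dehydrogenases that oxidise ethanol, retinol and other alcohols, fell in LD. They were 2 of the 5 members tested, against 7.45% of all genes, while none rose and 3 were not called. The median difference of the list was -0.73, against -0.06 over all genes. ADH6 was at 0.25, 0.22 and -0.09 in LD, against 0.66, 0.71 and 0.68 in CA. Its CA samples were close together, and the lowest value was in LD replicate 3. ADH1C was at 0.30, 0.10 and -0.40 in LD and at 0.88, 0.64 and 0.66 in CA. LD replicate 3 was again the lowest sample. The differences were -0.56 ± 0.12 for ADH6 (adjusted p = 0.0312, limma) and -0.73 ± 0.19 for ADH1C (adjusted p = 0.0404, limma). ADH1A, ADH1B and ADH4 had differences of -0.95 ± 0.75, -0.77 ± 0.32 and -0.25 ± 0.15 and did not pass the test.

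The 3 chains of fibrinogen, the clotting protein secreted by liver and induced in lung epithelium, fell by similar amounts against all CA samples, but none of them passed the test with the exposure plate as a block in the model (a term for each plate, estimated with the help of CA and NEC). FGA was at 4.44, 4.36 and 3.84 in LD, against 4.57, 5.41 and 5.37 in CA. FGB was at 5.06, 4.96 and 4.47 in LD, against 5.24, 5.86 and 5.91 in CA. FGG was at 5.52, 5.49 and 4.97 in LD, against 5.65, 6.49 and 6.46 in CA. In each chain LD replicate 3 was the lowest sample, and CA of plate 1 stood close to LD replicate 1 and apart from the other CA samples. The differences were -0.91 ± 0.26, -0.84 ± 0.22 and -0.87 ± 0.26, with adjusted p between 0.0404 and 0.0492. With the plate as a block, FGA, FGB and FGG differed by -0.34 ± 0.17, -0.39 ± 0.17 and -0.28 ± 0.16 (adjusted p = 0.234, 0.186 and 0.302, limma). Coagulation factor F5 and the inhibitor TFPI2 had differences of -0.15 ± 0.12 and -0.16 ± 0.25 and were not called. Without the block 3 of 5 members of the list thus fell, against 7.45% of all genes. With the block none fell, and TFPI2 was called higher, by 0.44 ± 0.11 (adjusted p = 0.042, limma), against 3.9% of all genes.

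Other secreted plasma proteins were lower in part. Albumin, ALB, was at -4.27, -4.34 and -4.77 in LD, against -4.07, -3.12 and -3.41 in CA, a difference of -0.93 ± 0.24 (adjusted p = 0.0404, limma), and one of -0.50 ± 0.23 with the plate as a block (adjusted p = 0.186). Of the 8 plasma carriers and protease inhibitors tested, ALB fell, SPINK1 rose and 6 were not called, against 11.7% of all genes called. SERPINA1, alpha-1-antitrypsin, had a difference of -0.93 ± 0.35 (adjusted p = 0.11, limma). In the complement list all 7 members were below 0, with a median of -0.19, and 1 of them, C5, was called, a share near that of all genes. C5, whose fragments attract leukocytes, was at 0.57, 0.57 and 0.22 in LD, against 1.14, 0.79 and 1.09 in CA, a difference of -0.55 ± 0.16 (adjusted p = 0.0461, limma). The C5 promoter is shown as the only panel promoter with the pattern of HNF1, a regulator of liver-type genes, over the 150 bases before its start (chr9:121050276-121050425, minus strand), with the match in capitals.
C5: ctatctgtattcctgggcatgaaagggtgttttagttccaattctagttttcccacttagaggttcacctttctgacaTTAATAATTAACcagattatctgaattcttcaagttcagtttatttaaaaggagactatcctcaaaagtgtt
The HNF1 consensus, searched on both strands, was found in 1 of 229 panel promoters (0.437%) and in 0.0513% of all promoters, and in C5 it lies on the opposite strand. The exact consensus was not in the windows of ALB, FGA, FGB and FGG.

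Among regulators of development, HES1 and WNT4 fell. HES1, a repressor that Notch signalling induces, was at -0.53, -0.55 and -0.61 in LD and at -0.19, 0.78 and 0.54 in CA. The LD samples were close together, and CA of plate 1 lay nearer to LD than to the other CA samples. The difference was -0.94 ± 0.22 (adjusted p = 0.0365, limma), and -0.45 ± 0.14 with the plate as a block (adjusted p = 0.0837). WNT4, a secreted ligand, was at -1.35, -1.39 and -1.75 in LD and at -0.83, -0.87 and -0.78 in CA. Here the 3 CA samples were alike, and the difference was -0.67 ± 0.13 (adjusted p = 0.0148, limma). HOXC5, the third member of the list tested, had a difference of -0.43 ± 0.18 and was not called.

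The promoters of HES1, the classical target of the Notch effector RBPJ, and of DHRS9, the gene with the largest rise, are shown for the RBPJ core TGGGAA, which is in capitals. Both are the 150 bases before the gene start on the plus strand, from chr3:194135998-194136147 for HES1 and chr2:169080957-169081106 for DHRS9.
HES1: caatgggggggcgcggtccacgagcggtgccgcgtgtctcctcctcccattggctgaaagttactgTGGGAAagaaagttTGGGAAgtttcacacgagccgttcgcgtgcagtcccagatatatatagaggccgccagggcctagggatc
DHRS9: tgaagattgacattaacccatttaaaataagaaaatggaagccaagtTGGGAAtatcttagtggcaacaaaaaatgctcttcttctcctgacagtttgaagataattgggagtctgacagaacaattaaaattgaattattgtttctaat
HES1 carried the core 84 and 70 bases before its start, and DHRS9 carried it 103 bases before its start. On either strand, TGGGAA occurred in 12 of the 29 called genes with a window, among them EMP3, SPINK1, TINAGL1, FGA, FGB and FGG, in 58 of 229 panel genes (25.3%) and in 21.1% of all promoters. The genes with the core included rises and falls. The last letters of the core, GGAA, are also the first of the TEAD pattern GGAATG, which was found in 5 of the 29.

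INSL4, a placental peptide of the relaxin family, was at 2.35, 2.16 and 2.01 in LD and at 2.49, 3.77 and 3.48 in CA. CA of plate 1 was closer to every LD sample than to the other CA samples, and the difference was -1.07 ± 0.31 (adjusted p = 0.0461, limma), and -0.37 ± 0.16 with the plate as a block (adjusted p = 0.175). SLC4A4, a sodium bicarbonate cotransporter, was at -0.21, -0.42 and -0.83 in LD and at -0.10, 0.74 and 0.35 in CA, with a difference of -0.82 ± 0.21. The calcium-binding secretagogin SCGN fell by 0.80 ± 0.22, the lectin receptor CD302 by 0.63 ± 0.15, and MRC2, an endocytic receptor for collagen, by 0.56 ± 0.15. SLC4A4, SCGN, CD302 and MRC2 did not pass the test with the plate as a block. CD302 then differed by -0.34 ± 0.12 (adjusted p = 0.112, limma).

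The smaller falls included BAAT, which conjugates bile acids (-0.51 ± 0.14), the EF-hand protein CGREF1 (-0.45 ± 0.13), SEC13 of the COPII coat and the nuclear pore (-0.43 ± 0.12), the alpha-tubulin TUBA4A (-0.42 ± 0.13), POLD2, a subunit of DNA polymerase delta (-0.40 ± 0.11), and CLDN2, a pore-forming claudin of tight junctions (-0.34 ± 0.10). CLDN2 was at 3.87, 3.86 and 3.66 in LD and at 4.15, 4.13 and 4.14 in CA. Its CA samples were nearly identical. BAAT, CGREF1, SEC13 and POLD2 were chosen for naming after their values were seen.

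With 11.7% of all genes called, a list of 4 members without a call lies near the share of all genes, and nothing is read from the counts of the stress lists. None of the 4 tested members of the integrated stress response (DDIT3, CHAC1, GDF15 and PPP1R15A), none of the 4 p53 targets (MDM2, GADD45A, FAS and AEN) and none of the 4 antioxidant, metal-binding and autophagy genes (CAT, MT2A, FTL and SQSTM1) was called. Their medians were 0.02, -0.03 and -0.02. MT2A was detected late, with a CT of 36.1, 35.6 and 35.5 in LD and of 35.5 and 36.2 in CA replicates 2 and 3. It had no product in CA replicate 1. The authors set late wells to a CT of 35, so no change or lack of change is read from MT2A. DDIT3, a stress transcription factor, had a difference of 0.06 with a 95% interval of -0.45 to 0.58, so a small change in either direction was not detectable with 3 samples. None of the 7 tested NF-kB and inflammatory genes and none of the 7 EGFR ligands and MAPK response genes was called either, with medians of -0.19 and -0.08. Against 4.26% of all genes that rose, the matrix list had 1 rise, LOXL2, among 6 members, with MMP7, a matrix protease, at 0.63 ± 0.23 (adjusted p = 0.0903, limma) and the laminin chain LAMA3 at 0.47 ± 0.19 (adjusted p = 0.124, limma). Against the same 4.26%, the glycolysis list held 2 rises among 8 members, ALDOC and LOXL2, with LDHA and PGK1 at 0.08 and 0.07. LOXL2 belongs to both lists, and of the 2 rises in the glycolysis list only ALDOC is an enzyme of glycolysis.

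**Figure D2:**
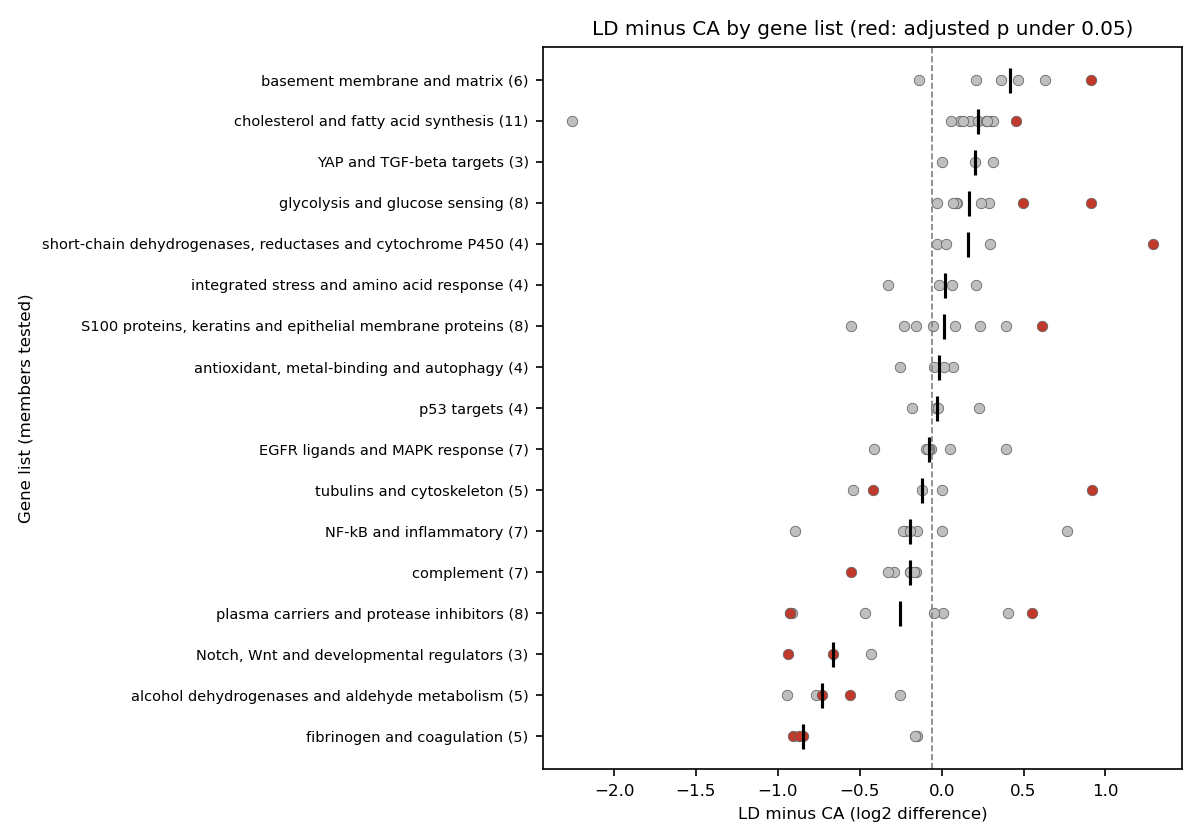
LD minus CA for each tested member of the gene lists with at least 3 tested members, in log2 units, with lists in rows. Red points passed the test, grey points did not, black bars are list medians and the dashed line is the median of -0.06 over all genes. The alcohol dehydrogenase, fibrinogen and Notch and Wnt lists lie lowest, and the matrix list lies highest with a median of 0.42. The grey point at -2.26 is FASN.

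Because LD had a single exposure plate, plate 1 was also examined in the controls. Across 274 genes detected in all samples, the offset of plate 1 from plates 5 and 6 in CA and the same offset in NEC had r = 0.72, as a description over genes that share the plates, the cells and the normalisation genes. Of the 21 falls, 17 had a lower CA value on plate 1 than the mean of plates 5 and 6 and 16 were also lower in NEC, while plate 1 was lower in both controls for 47.1% of all genes. Large offsets were those of INSL4, at -1.13 in CA and -0.99 in NEC, of the fibrinogen chain FGG, at -0.83 and -0.93, and of HES1, at -0.85 and -0.61. Of the 12 rises, 6 had a higher CA value on plate 1, 5 a higher NEC value and 4 both. The share of all genes was not counted for the rises or for CA alone. The CA offsets use the same CA values as the calls.

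With the plate as a block in the model, which uses CA and NEC to estimate the plates, 17 genes were called (6.03%), 11 higher (3.9%) and 6 lower (2.13%). Of the 33 genes, 10 were among them. The rises of DHRS9, EMP3, LOXL2, SPINK1, TINAGL1 and INSIG1 and the falls of ADH1C, ADH6, BAAT and WNT4 passed the test in both fits. DHRS9 differed by 1.14 ± 0.27, LOXL2 by 1.20 ± 0.22, ADH1C by -0.89 ± 0.23 and WNT4 by -0.64 ± 0.16, with adjusted p of 0.042, 0.0191, 0.042 and 0.042. The fibrinogen chains, ALB, HES1 and INSL4, given above, were among the 23 genes that did not. The rises of DCLK1, AKAP2, ZNF165, CD79A, ALDOC and GRB10 did not pass with the block either. Nor did the falls of SLC4A4, SCGN, CD302, MRC2, C5, CGREF1, SEC13, TUBA4A, POLD2 and CLDN2. Beside LD, the level of plate 1 rests on 1 CA and 1 NEC sample in this fit.

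**Figure D3:**
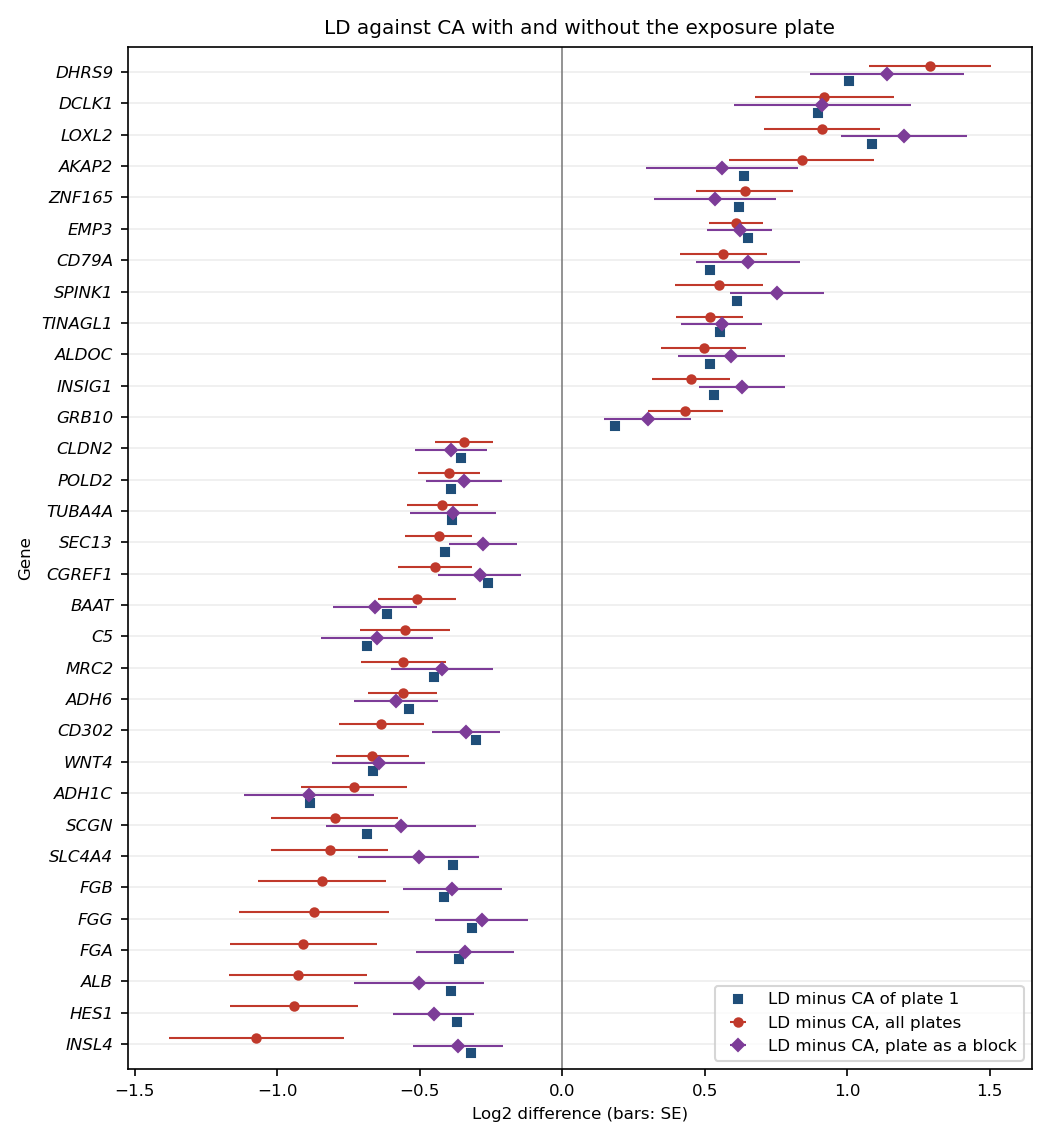
LD minus CA for 32 of the 33 genes in log2 units, with genes in rows. Red circles use all CA samples, violet diamonds use the plate as a block (bars are SE for both), and blue squares are the difference from the single CA sample of plate 1, with no error. All 3 values have the same sign in each row. For the squares this had to be so, since the LD and CA samples of these genes did not overlap. The fibrinogen chains, ALB, HES1 and INSL4 lie nearer to 0 with the block, at -0.28 to -0.50.

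A further 7 genes were called only with the plate as a block. DUSP6, a phosphatase of MAP kinases, was at -0.30, -0.07 and 0.14 in LD and at -0.64, 0.48 and 0.21 in CA, so the groups overlapped, and differed by 0.70 ± 0.17 with the block and by -0.09 without it. IDI1, an enzyme of sterol synthesis, was at 5.09, 4.98 and 4.96 in LD and at 4.47, 4.99 and 4.89 in CA, and differed by 0.57 ± 0.10 with the block (adjusted p = 0.0191, limma). EMP1 differed by 0.81 ± 0.21 with the block, the death receptor FAS by 0.55 ± 0.14, TFPI2 by 0.44 ± 0.11, fibronectin FN1 by -0.54 ± 0.13 and the olfactory-type receptor OR51E1 by -0.67 ± 0.15. CA of plate 1 was the highest CA sample for FN1 and OR51E1 and the lowest for the other 5. With plate 1 CA as the only control no gene was called, 30 genes had an unadjusted p under 0.05, and the smallest adjusted p was 0.243 in that limma fit, in which the lone CA sample was taken to vary like the other groups.

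The number of calls depended on single samples. Without LD replicate 1, 2 or 3 the count of genes called was 9, 5 and 2, and without CA replicate 1, 2 or 3 it was 26, 2 and 2. DHRS9 and EMP3 remained called in each of these 6 fits, with differences between 1.14 and 1.55 for DHRS9 and between 0.56 and 0.67 for EMP3. Under other settings, DHRS9 was not called with only LD and CA in the fit, and EMP3 was not called without normalisation. The other called genes could not change sign in the same 6 fits, since their LD and CA samples did not overlap. Of the genes called with and without the plate block, INSIG1, SPINK1 and BAAT were called in none of the 6 fits. ADH1C and TINAGL1 were called in 1 each, LOXL2 in 2, and ADH6 and WNT4 in 3 each. ADH6 ranged from -0.62 to -0.45 with adjusted p between 0.0282 and 0.119, WNT4 from -0.74 to -0.54 with adjusted p between 0.0162 and 0.077, and LOXL2 from 0.76 to 1.09 with adjusted p between 0.0192 and 0.119 (limma).

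The 2 higher concentrations were set beside LD. LD, MD and HD were each compared with the same CA samples, so these comparisons are not independent. MD differed from CA in 175 genes (62.1%) and HD in 215 genes (76.2%). DHRS9 was higher than CA by 1.29 in LD, 1.72 in MD and 2.53 in HD, and EMP3 by 0.61, 1.26 and 1.36. DCLK1 was at 0.92, 1.36 and 1.86, and INSIG1 at 0.45, 0.72 and 0.83. ADH6 was at -0.56, -1.22 and -1.70, and BAAT at -0.51, -1.22 and -1.54. WNT4 was at -0.67, -0.65 and -0.78, and the fibrinogen chain FGB at -0.84, -0.90 and -1.46. LD and HD were also compared directly. Of all genes tested 180 differed (63.8%), as did 24 of the 33. Among these 24 genes HD was further from CA than LD in 21 and nearer to CA or on its other side in 3. Between LD and MD 97 genes differed (34.4%), as did 14 of the 33. With the plate as a block the counts over all genes were 100 for LD against HD and 1 for LD against MD.

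**Figure D4:**
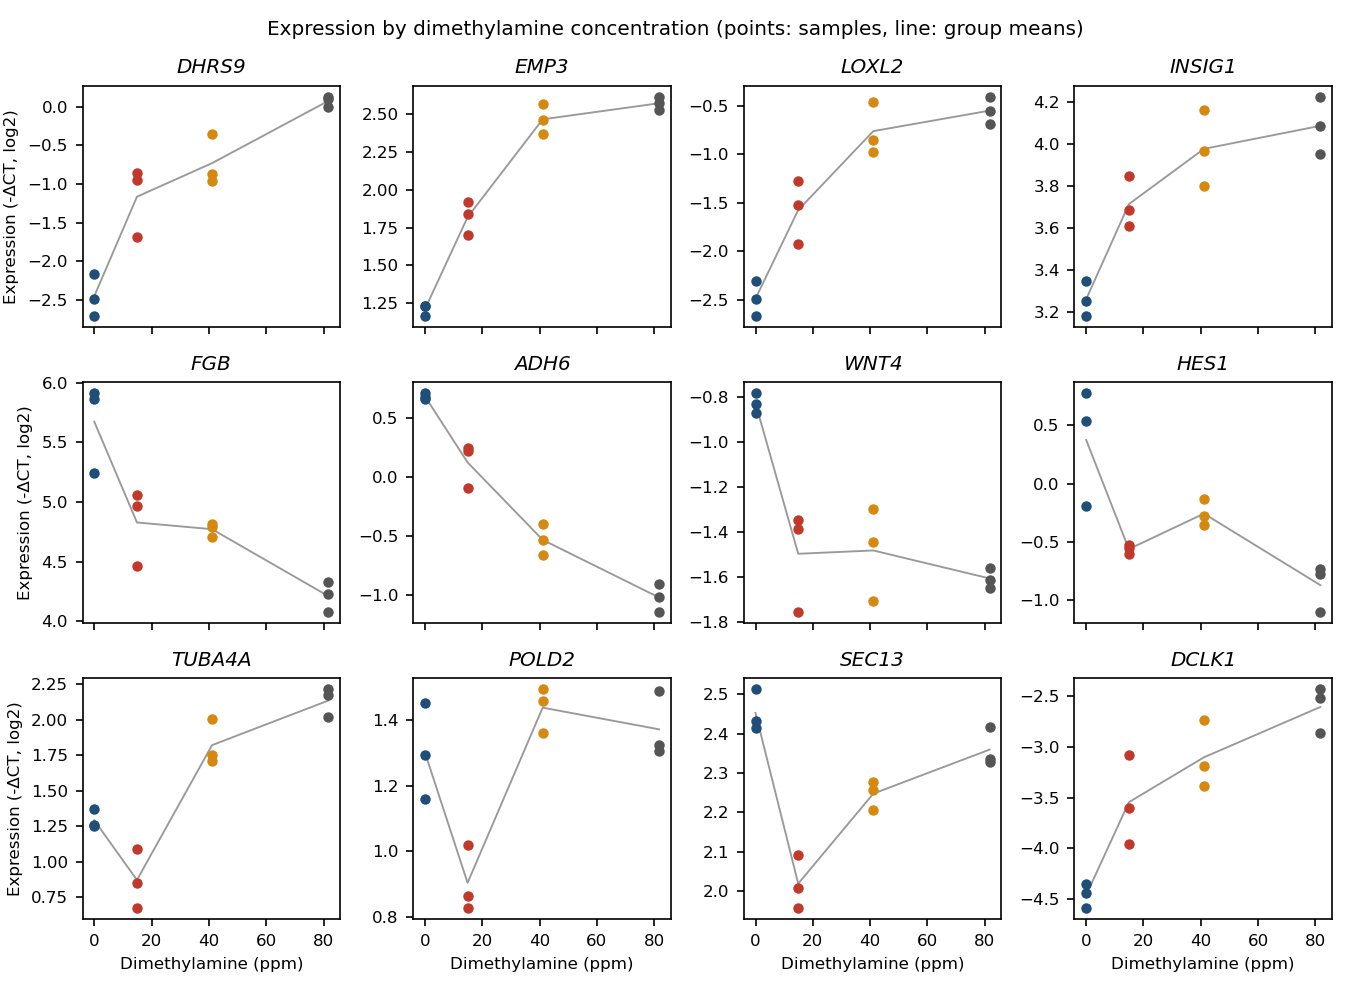
Expression of 12 genes against the dimethylamine concentration in ppm, as negative ΔCT in log2 units, with CA at 0 ppm, LD at 14.9, MD at 41.1 and HD at 81.7. Points are samples, lines join the group means, and the vertical scale differs between panels. DHRS9, EMP3, DCLK1 and ADH6 move further with each concentration, WNT4 stays near its LD level, and TUBA4A, POLD2 and SEC13 are lowest in LD.

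TUBA4A, POLD2 and SEC13 had their lowest levels in LD. TUBA4A was at 1.09, 0.67 and 0.85 in LD, against 1.26, 1.37 and 1.25 in CA, and was higher than CA by 0.53 ± 0.13 in MD and by 0.84 ± 0.13 in HD. LD differed from HD by -1.27 ± 0.13 (adjusted p = 2.15e-05, limma), and by -1.30 ± 0.19 with the plate as a block (adjusted p = 0.00148). POLD2 was at 0.86, 1.02 and 0.83 in LD, against 1.29, 1.16 and 1.45 in CA, and did not differ from CA past the threshold in MD (0.14 ± 0.11) or HD (0.07 ± 0.11). SEC13 was at 2.01, 1.96 and 2.09 in LD, against 2.43, 2.51 and 2.41 in CA, with differences of -0.21 ± 0.12 in MD and -0.09 ± 0.12 in HD. Under the plate block the LD differences of TUBA4A, POLD2 and SEC13 were -0.38, -0.34 and -0.28, with adjusted p of 0.144, 0.144 and 0.175 (limma).

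Differences within plates share no sample between doses. Over 274 genes, LD minus the CA sample of plate 1 had an SD of 0.39 across genes, MD minus that of plate 5 an SD of 0.69 and HD minus that of plate 6 an SD of 0.98. LD and HD had the same sign for 232 genes (84.7%) with r = 0.68 across genes, and LD and MD for 223 genes (81.4%) with r = 0.69. These are descriptions over genes of a panel that the study chose by earlier measurements of the same exposure, and each rests on 1 control sample per plate.

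**Figure D5:**
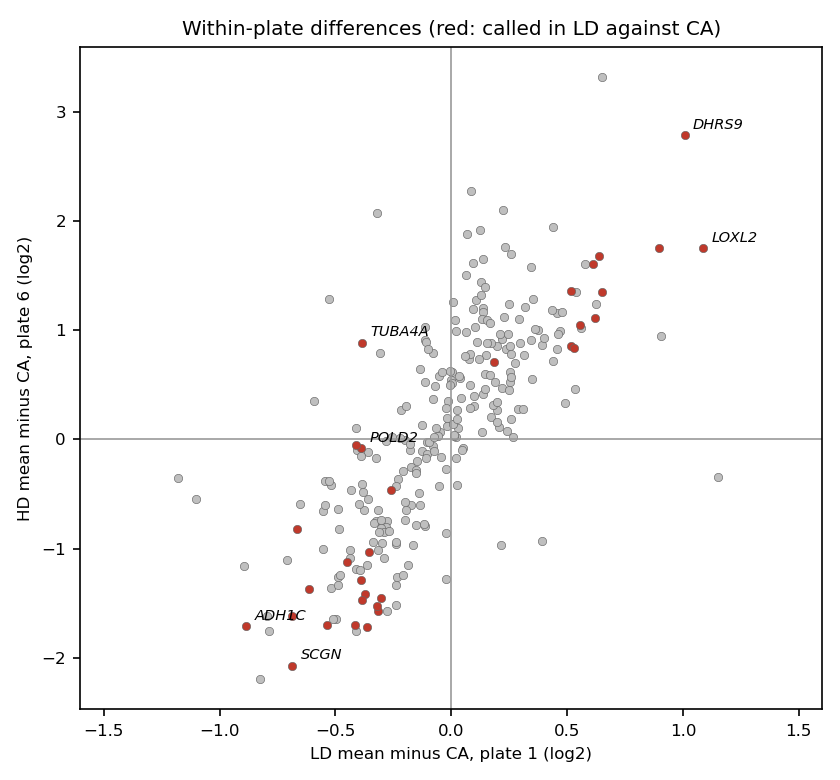
Mean of the 3 HD samples minus CA of plate 6 (vertical) against the mean of the 3 LD samples minus CA of plate 1 (horizontal), in log2 units, with 1 point per gene. Red points were called in LD against CA, and FASN is not drawn, since it lies outside the horizontal range at -2.26. DHRS9 and LOXL2 are high on both axes at 1.01 and 1.09 in LD, ADH1C and SCGN are low on both, and TUBA4A is low in LD and high in HD.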

How the data were processed

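RNA of 15 samples of A549 cells was measured by RT-PCR arrays, in 5 groups of 3. The authors deposited a matrix of threshold cycles, in which wells without a product are marked nd, and a second matrix of ΔCT values on the log2 scale, obtained by subtracting the mean CT of GPN1 and TMEM184C, with late or empty wells filled (a CT of 35 or another value). They also deposited a table of fold changes over CA (a ratio per group), which was not used here. The second matrix was used with its sign turned, and wells marked nd were treated as missing. A gene was tested with at least 2 detected samples in both groups, and a model with 1 mean per group over all 15 samples was fitted (limma 3.58.1, R 4.3.3, two-sided, Benjamini-Hochberg over 282 genes, threshold 0.05). The normalisation genes and the second ACTA2 assay were left out. With 3 samples against 3 an exact permutation test cannot go below p = 0.1 for a single gene, so the pooled model was used. The fit was tested on simulated data for LD against CA over 282 genes, in which 40 genes were changed by 1 log2 unit in each of 20 sets. It called 85.4% of the changed genes, with 4.61% of its calls false. A change of 1 log2 unit is larger than most of the differences called here, so these shares do not apply to smaller changes.

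Alternatives were the exposure plate as a block, CA of plate 1 alone, other normalisations, other treatments of nd wells, other models and leaving out each sample. The members, lists and tests were chosen with earlier results of these data known. Genes were named by a rule, namely the 15 largest called differences each way, the 6 largest each way that were not called, the 6 that moved most under the plate block, up to 3 members of each list by adjusted p, genes opposite in MD or HD, the normalisation genes and genes the study text names. Others were named after their values were seen. Of the 33 called genes, 1 is counted but not reported here. Array data hold no read depth, and precision is limited by 3 samples a group. Promoters came from RefSeq (GRCh38.p14), where 280 of 282 genes were matched by the accession of their assay and 229 had a window of 250 bases before the start. Plots and promoter searches used Python 3.11.15 and matplotlib 3.10.9.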

Additional observations from a re-analysis of the deposited data

Results flagged for a closer look

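POLD2 and TUBA4A were picked out because their differences from CA had opposite signs at LD and at the higher concentrations. The direct difference between the doses also passed the test in limma. Only TUBA4A was called higher than CA in MD and in HD, while POLD2 did not differ from CA past the threshold there. POLD2 was lower in LD than in MD by -0.54 ± 0.11 (adjusted p = 0.0054) and lower in LD than in HD by -0.47 ± 0.11 (adjusted p = 0.00224). TUBA4A was lower in LD than in MD by -0.95 ± 0.13 (adjusted p = 0.00109) and lower in LD than in HD by -1.27 ± 0.13 (adjusted p = 2.15e-05). Each dose had its own plate. With the plate as a block, estimated from CA and NEC, POLD2 differed by -0.48 ± 0.17 between LD and MD (adjusted p = 0.196) and by -0.36 ± 0.17 between LD and HD (adjusted p = 0.122), and neither passed the test. TUBA4A differed by -0.81 ± 0.19 between LD and MD (adjusted p = 0.0578), which no longer passed, and by -1.30 ± 0.19 between LD and HD (adjusted p = 0.00148), which did.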

How the results depend on the processing

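The count of 33 genes in LD against CA (12 higher, 21 lower) was 17 (11 higher, 6 lower) with the exposure plate as a block, 0 (0 higher, 0 lower) with CA of plate 1 only, where 30 genes had an unadjusted p under 0.05, 11 (2 higher, 9 lower) without normalisation, 2 (2 higher, 0 lower) with GPN1 alone, 42 (31 higher, 11 lower) with the median of all genes, 5 (3 higher, 2 lower) with only LD and CA in the fit, 5 (3 higher, 2 lower) with a plain linear model and 81 (30 higher, 51 lower) with CA and NEC together as control. Leaving out 1 sample gave 2 to 26 genes, with 2 to 8 higher and 0 to 18 lower. LD against MD gave 97 genes, 1 with the plate as a block, 22 without normalisation and 53 to 96 without 1 sample, and LD against HD gave 180 genes, 100 with the plate as a block and 159 to 174 without 1 sample. The replicate block left 90 genes for LD against MD and 181 for LD against HD. The replicate numbers did not pair the samples, since the correlations of equal numbers between LD and MD or HD ran from -0.15 to 0.25, and CA was labelled only with number 1, so no paired analysis was possible for LD against CA. Of 1518 values under alternatives, for 85 genes named by the rule or called, 358 lost the call with the same sign and 26 gained it. None that was called changed sign. The other 1134 stayed on the same side of the threshold, among them 58 that changed sign with neither value called. DUSP6 and TFPI2 are outside these 85 genes. They were at -0.09 and -0.16 without the plate block, and at 0.70 and 0.44 with it, where both were called. The cause of these shifts was not tested. The precision is limited by 3 samples a group.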
